A study of Mus musculus with 24 samples.

Results

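The genes described here encode 7 transcription factors that build the red cell program: Gata1, Klf1, Gfi1b, Zfpm1, Nfe2, Tal1 and Ldb1. They were taken by gene symbol, and they are 7 of 55414 gene identifiers in the deposited count files. All of them passed the filter on low counts, which left 19616 genes for testing. RNA was sequenced from LSK cells of bone marrow, which lack lineage markers, carry Sca-1 and Kit, and include the stem cells and early progenitors of the blood. They came from pups aged 21 days. C57BL/6J dams had been assigned at random to a Western diet (TD.88137), intended to cause obesity, or to regular chow (2018SX) as the control, and ate it before mating, in pregnancy and while nursing. The 4 groups are female pups of Western-diet dams, female pups of control dams, male pups of Western-diet dams and male pups of control dams, with 6 libraries in each and 2 libraries of each group in each of 3 labelled batches. The labels give the maternal diet but no diet of the pups themselves, and they name neither dams nor litters. Each p-value therefore rests on the spread between libraries, and any littermates among the pups would not be independent.

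GATA1 is a zinc finger factor that binds GATA sites and, with its cofactor FOG1 (the product of Zfpm1), switches on erythroid genes while GATA2, the form used by stem cells, is switched off. TAL1 joins GATA1 on DNA through the bridging protein LDB1, which also brings distant enhancers to promoters such as those of the globins. KLF1 binds CACCC boxes and drives genes for adult globin, heme synthesis and the red cell membrane, GFI1B is a repressor required for red cells and megakaryocytes, and NFE2 pairs with small MAF proteins at globin and platelet genes.

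Sequencing was deep and even. Libraries held 38057263 to 51581968 counts in genes, of which Zfpm1 took 101 to 499 and each of the other 6 factors at least 1181 per library. Along the first principal component of log2 CPM, 2 control females of batch 3 (female controls 5 and 6) stood apart at -91.0 and -72.4, against -29.3 to 41.8 in the other libraries. Diet effects in females are given with and without this pair where its removal changes a call. Along the second component, male control 1 (-73.4), Western-diet female 6 (-69.8) and Western-diet female 3 (55.3) lay farthest out. Each of these libraries is flagged for a factor at the end. Transcripts of the LSK markers Kit (267 to 883 CPM), Cd34 (227 to 953 CPM) and Flt3 (91.6 to 504 CPM) were present in every library, while Ly6a, which encodes the Sca-1 protein used in the sort, ranged from 2.14 to 39.9 CPM. CPM are counts per 1000000 gene counts of a library, with library sizes corrected by the TMM method.

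Per kilobase of exon, the scale on which genes can be compared, Klf1 was the most abundant of the 7 factors and Zfpm1 the least. Over all 24 libraries the mean level of Klf1 was 227 ± 172 CPM per kilobase (SD, n = 24). Nfe2 followed at 85.6 ± 17.8, Gfi1b at 76.5 ± 49.3 and Gata1 at 73.0 ± 40.9 CPM per kilobase (SD, n = 24 each). Ldb1 at 16.1 ± 4.05, Tal1 at 13.1 ± 6.34 and Zfpm1 at 1.63 ± 0.697 CPM per kilobase (SD, n = 24 each) lay below these 4. Klf1 ranked highest and Zfpm1 lowest in each of the 4 groups. In the middle the order changed on this length: the mean of Nfe2 ranked above those of Gata1 and Gfi1b in both groups of Western-diet pups, while Gfi1b ranked above Nfe2 in both control groups. Neighbours in the order overlapped in their ranges over libraries within each group, except that all 4 leading factors stayed above Ldb1, and Tal1 above Zfpm1. With the longest coding transcript as the length the order was not the same. The mean of Nfe2 over all libraries became 136 CPM per kilobase, its group means (141 and 148 in Western-diet females and males) passed those of Klf1 (132 and 144), and in control pups (127 in females and 128 in males) they lay above those of Gfi1b (124 and 84.9).

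**Figure D1:**
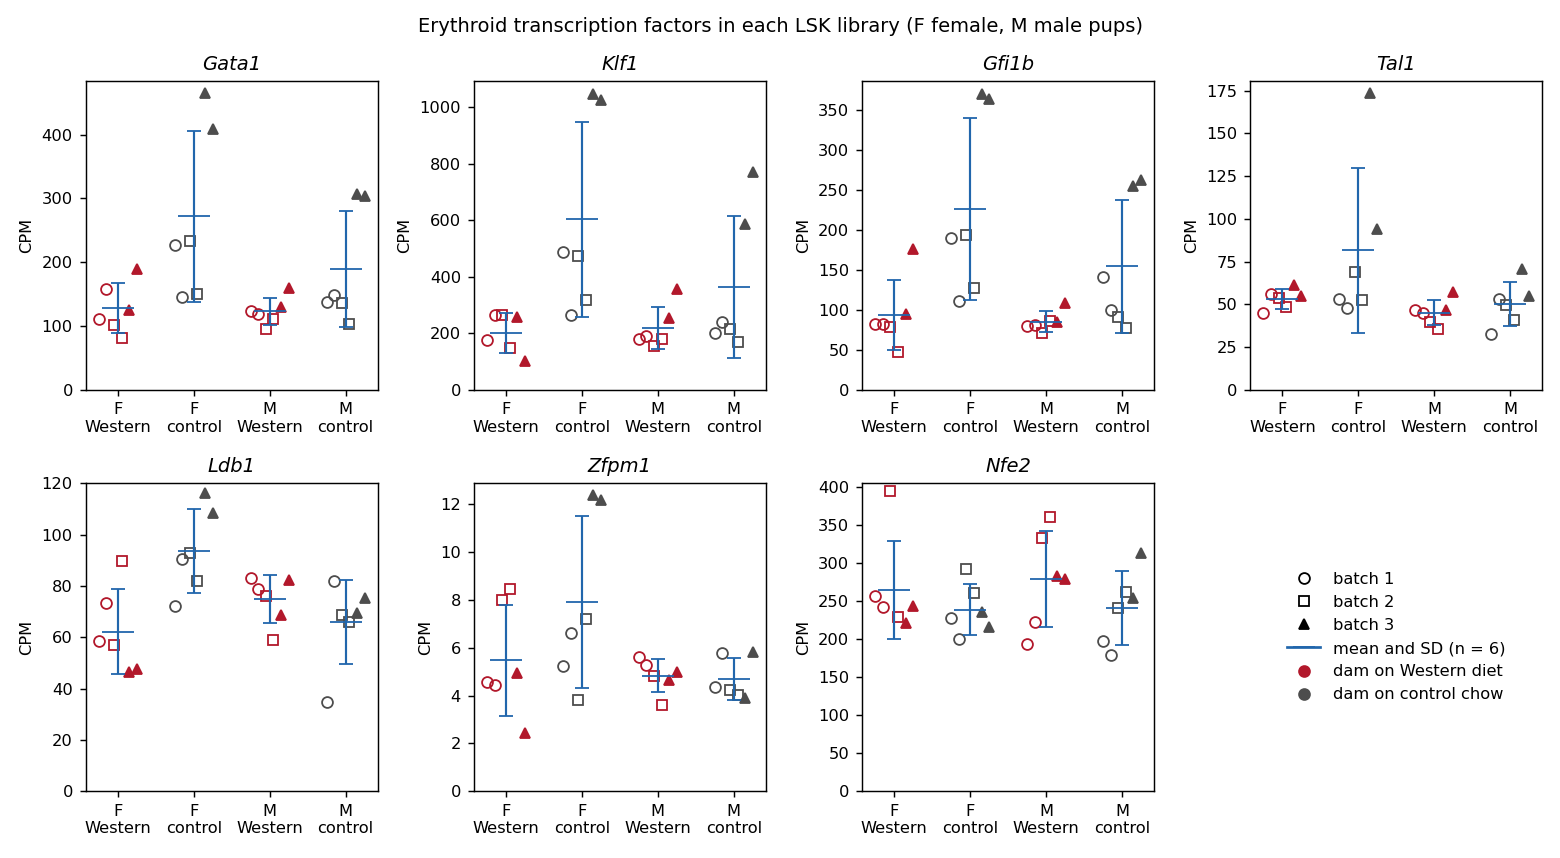
Level of each factor in each library, in CPM on a linear axis from 0, for Western-diet and control pups of each sex; circles, squares and triangles mark batches 1, 2 and 3, and blue bars give the mean and SD of 6 libraries. Gata1, Klf1 and Gfi1b reach their highest values in the 2 control females of batch 3 (465 and 409 CPM for Gata1), while the groups of Nfe2 lie over each other.

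The first question was what maternal Western diet changed in female pups. Gata1, Klf1 and Gfi1b fell 2.01-fold, 2.51-fold and 2.35-fold in pups of Western-diet dams relative to pups of control dams. Ldb1, Tal1 and Zfpm1 had lower means in Western-diet females without passing the test, and Nfe2 had a slightly higher one. Thus 3 of the 7 factors were called lower and 0 higher, where 3.22% of all genes tested were called lower and 2.20% higher. The groups overlapped for each of the 7, while 0.714% of all genes tested had all Western-diet females below all control females and 0.469% had them above. The test was edgeR's quasi-likelihood test on all 24 libraries with a term for batch, and a gene was called at a Benjamini-Hochberg adjusted p under 0.05. With no filter on low counts 5 of 7 were called lower, Tal1 and Ldb1 in addition, and with batch 1 left out 5 of 7 as well. Over the whole table these fits called 1145 and 1234 genes lower, against 632 in the fit reported.

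Gata1 had a lowest, median and highest level of 81.2, 119 and 189 CPM in Western-diet females, against 145, 231 and 465 CPM in control females. The mean was 128 ± 39.6 CPM in Western-diet females and 272 ± 134 CPM in control females (SD, n = 6 each). Of the Western-diet females, 4 of 6 lay below all control females and 6 of 6 lay below the control mean of their own batch. The log2 fold change was -1.004 ± 0.18 (SE), with an adjusted p of 0.00149 by edgeR's quasi-likelihood test. With no batch term it was -1.09, with an adjusted p of 0.0504 by the same test. In bulk RNA, fewer cells of a type that carries Gata1 and less Gata1 RNA per cell cannot be told apart, and the same holds for every factor below.

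Klf1, the activator of adult globin and red cell membrane genes, differed by the most of the 7. Its lowest, median and highest levels were 101, 216 and 265 CPM in Western-diet females, against 264, 482 and 1046 CPM in control females. The mean was 202 ± 70.2 CPM in Western-diet females and 603 ± 346 CPM in control females (SD, n = 6 each). The highest Western-diet female, at 265 CPM, lay just above the lowest control female, at 264 CPM, and the other 5 of 6 lay below all control females. The log2 fold change was -1.33 ± 0.29 (SE), with an adjusted p of 0.00839 by edgeR's quasi-likelihood test. Without the control pair of batch 3 it was -1.15, with an adjusted p of 0.123 by the same test, so the call for Klf1 was lost without that pair. It was also lost, with the pair kept, when batch 2 was left out (-1.58, adjusted p 0.0574) and when only the 2 groups were fitted (-1.44, adjusted p 0.0564).

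Gfi1b, the repressor, had a lowest, median and highest level of 47.7, 82.4 and 176 CPM in Western-diet females, against 112, 192 and 371 CPM in control females. The mean was 93.6 ± 43.4 CPM in Western-diet females and 226 ± 114 CPM in control females (SD, n = 6 each). Western-diet female 6, at 176 CPM, was the only animal of its group inside the control range. On the log2 scale the change was -1.23 ± 0.20 (SE), with an adjusted p of 0.000713 by edgeR's quasi-likelihood test. Gfi1b was called under all 36 alternatives run for the female comparison, and without the control pair of batch 3 it had a log2 fold change of -1.11 and an adjusted p of 0.0265 by edgeR. Gata1 then had a log2 fold change of -0.84 and an adjusted p of 0.0452 by edgeR, so that 2 of 7 factors were called, among 144 genes called lower over the whole table.

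The DNA just upstream of Gata1, Klf1 and Gfi1b is shown because these are the factors that fell together, and because GATA sites and CACCC boxes are the sites that GATA1 and KLF1 themselves bind. Each line gives the 250 bases before the annotated start, 5′ to 3′ on the strand of the gene, from RefSeq on build GRCm38.p6 (the counts were made on GRCm39). Gata1 lies on the X chromosome (chrX:7967911-7968160, minus strand), Klf1 on chromosome 8 (chr8:84901732-84901981, plus strand) and Gfi1b on chromosome 2 (chr2:28621983-28622232, minus strand). Capitals mark a GATA site (AGATAA or AGATAG or TGATAA or TGATAG) or a CACCC-type word (CCNCNCCC), searched on both strands, so that a word on the other strand appears as its reverse complement.
Gata1: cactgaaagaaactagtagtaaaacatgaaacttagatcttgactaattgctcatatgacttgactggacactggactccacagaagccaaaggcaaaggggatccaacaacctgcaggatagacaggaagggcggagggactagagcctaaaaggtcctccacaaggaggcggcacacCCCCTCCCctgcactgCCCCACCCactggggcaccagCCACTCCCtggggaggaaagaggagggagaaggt
Klf1: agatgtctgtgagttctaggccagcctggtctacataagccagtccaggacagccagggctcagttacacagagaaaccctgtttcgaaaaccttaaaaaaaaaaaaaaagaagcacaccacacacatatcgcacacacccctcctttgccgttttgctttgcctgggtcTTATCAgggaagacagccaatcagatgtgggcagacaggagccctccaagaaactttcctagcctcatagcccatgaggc
Gfi1b: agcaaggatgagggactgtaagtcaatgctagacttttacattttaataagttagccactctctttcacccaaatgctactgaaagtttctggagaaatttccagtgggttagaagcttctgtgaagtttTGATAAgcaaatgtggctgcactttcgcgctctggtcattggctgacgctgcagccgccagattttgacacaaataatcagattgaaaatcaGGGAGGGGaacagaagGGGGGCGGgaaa

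Klf1 holds a GATA site 80 bases before its start, written TTATCA on this strand, and no CACCC-type word as defined here (CCNCNCCC). The bare letters CACCC do occur, unmarked, in the windows of Klf1 and Gfi1b. Gfi1b holds a GATA site (TGATAA) 120 bases before its start and 2 CACCC-type words at 28 and 12 bases. Gata1 holds 3 CACCC-type words, at 71, 55 and 34 bases before its start, and no GATA site in this window. The table of promoters had an entry for 6 of the 7 factors, with 9 promoters in all. Of these 9, a GATA site was found in 4, a CACCC-type word in 7, an E-box (CANNTG, the word bound by TAL1 with its partners) in 4 and an NF-E2 core (TGAGTCA or TGACTCA) in 0. Of all 32851 promoters of the same length, 26.5% held a GATA site, 45.9% a CACCC-type word, 66.2% an E-box and 4.46% an NF-E2 core. Some CACCC-type words in promoters of Tal1 and Ldb1 overlap each other. A match describes letters in a window and is not evidence of binding.

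The members of the LDB1 complex differed by less in females. Ldb1, the bridging protein, had a lowest, median and highest level of 46.7, 57.7 and 89.5 CPM in Western-diet females, against 72.2, 91.6 and 116 CPM in control females. With 4 of 6 Western-diet females below all control females, its log2 fold change was -0.59 ± 0.18 (SE) and its adjusted p 0.0570 by edgeR's quasi-likelihood test. Ldb1 passed that threshold in DESeq2, where the adjusted p was 0.0256. Without the control pair of batch 3 its log2 fold change was -0.42, with an adjusted p of 0.406 by edgeR. Exons of Ldb1 overlap those of Pprc1 on the other strand (1467 to 9365 counts per library), and the library kit does not mark strand, so reads of the overlap cannot be told apart.

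Tal1, the helix-loop-helix partner of GATA1, had a lowest, median and highest level of 44.6, 54.1 and 61.3 CPM in Western-diet females, against 47.5, 60.8 and 174 CPM in control females. The highest value, 174 CPM, came from female control 5. Its log2 fold change was -0.51 ± 0.18 (SE), with an adjusted p of 0.0995 by edgeR, and -0.18 without the control pair of batch 3.

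Zfpm1, whose product FOG1 is the cofactor of GATA1, was the scarcest factor. Its levels were 2.42, 4.76 and 8.42 CPM (lowest, median and highest) in Western-diet females, against 3.799, 6.91 and 12.4 CPM in control females. The log2 fold change was -0.50 ± 0.28 (SE), with an adjusted p of 0.323 by edgeR, and -0.02 without the control pair. An annotated gene on the same strand, Gm20388, overlaps the locus of Zfpm1 without sharing exons.

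Nfe2, the partner of the small MAF proteins, did not share the lower levels. Its levels were 221, 243 and 395 CPM (lowest, median and highest) in Western-diet females, against 200, 232 and 292 CPM in control females. Of the Western-diet females, 5 of 6 lay inside the range of the control females. On the log2 scale the difference was 0.15 ± 0.12 (SE), with an adjusted p of 0.531 by edgeR and a 95% interval of -0.09 to 0.39.

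**Figure D2:**
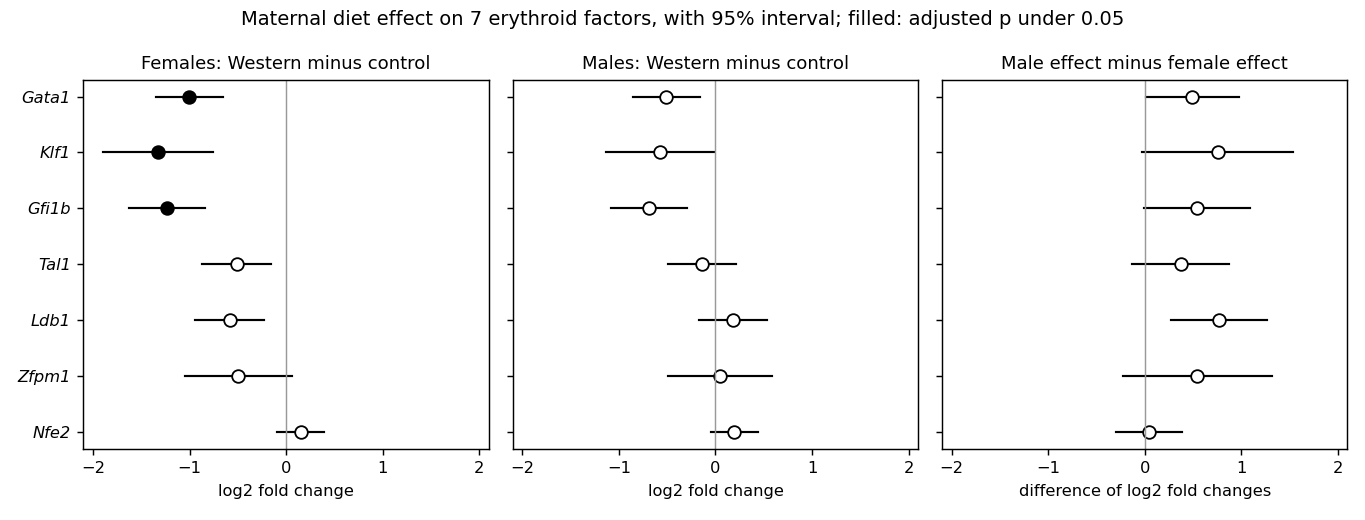
Log2 fold change of each factor for Western-diet over control pups in females and in males, and the male minus female difference of these effects; lines are 95% intervals and filled points have an adjusted p under 0.05. Filled points are Gata1 (-1.004), Klf1 (-1.33) and Gfi1b (-1.23) in females, and no point is filled for males or for the difference.

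The second question was the effect of maternal diet in male pups. Gata1, Klf1 and Gfi1b had lower means in Western-diet males too, with log2 fold changes of -0.51, -0.57 and -0.69, but none of the 7 factors was called. The count was 0 of 7 lower and 0 of 7 higher by edgeR's quasi-likelihood test, and likewise 0 by DESeq2 and by limma-voom, while 0.0102% of all genes tested were called lower and 0 genes higher by edgeR. At an unadjusted p under 0.05, 2 of 7 were lower in edgeR. They were Gfi1b and Gata1, which ranked 155 and 398 by p among the 19616 genes tested. With no filter on low counts Gata1, Klf1 and Gfi1b were called lower. That fit called 221 genes lower and 159 higher over the whole table. The groups of males overlapped for each of the 7, while 0.291% of all genes tested had all Western-diet males below all control males and 0.209% had them above.

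Gata1 had a lowest, median and highest level of 95.3, 121 and 159 CPM in Western-diet males, against 103, 143 and 307 CPM in control males. Its mean was 123 ± 21.4 CPM in Western-diet males and 190 ± 91.2 CPM in control males (SD, n = 6 each). All 6 Western-diet males lay below the control mean of their own batch, but 1 of 6 lay below all control males. On the log2 scale the change was -0.51 ± 0.18 (SE), with an adjusted p of 0.395 by edgeR.

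Gfi1b had a lowest, median and highest level of 71.1, 82.5 and 109 CPM in Western-diet males, against 77.6, 121 and 263 CPM in control males. Western-diet males were narrowly spread (85.2 ± 12.8 CPM, SD, n = 6) and control males widely (155 ± 83.5 CPM, SD, n = 6). Its change of -0.69 ± 0.20 (log2, SE) was the largest of the 7 in males, with an adjusted p of 0.282 by edgeR.

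Klf1 had a lowest, median and highest level of 156, 186 and 356 CPM in Western-diet males, against 170, 228 and 769 CPM in control males. Its log2 fold change was -0.57 ± 0.28 (SE), with an adjusted p of 0.605 by edgeR. The control males with the highest Klf1, at 769 and 586 CPM, both belong to batch 3. The medians of the groups lay closer together than these extremes.

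Means of the other 4 factors in males were 45.0 ± 7.35 CPM (Western diet) and 50.3 ± 12.9 CPM (control) for Tal1. For Ldb1 they were 74.8 ± 9.33 CPM in Western-diet males and 66.1 ± 16.4 CPM in control males. For Nfe2 they were 279 ± 63.3 CPM in Western-diet males and 241 ± 48.2 CPM in control males, and for Zfpm1 4.82 ± 0.684 CPM in Western-diet males and 4.68 ± 0.873 CPM in control males (SD, n = 6 each throughout). None of these differences exceeded the spread between libraries: the log2 fold changes were -0.14 for Tal1, 0.18 for Ldb1, 0.19 for Nfe2 and 0.05 for Zfpm1, with adjusted p from 0.700 to 0.974 by edgeR.

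Averaged over both sexes, 3 of 7 factors were called lower and 0 higher, where 3.51% of all genes tested were called lower and 2.19% higher. Gfi1b fell by 0.96 ± 0.14 on the log2 scale (SE, adjusted p 0.000185 by edgeR), Klf1 by 0.95 ± 0.20 (adjusted p 0.00636) and Gata1 by 0.76 ± 0.13 (adjusted p 0.000555). All 3 were also called without the control pair of batch 3. The average over the sexes uses the same libraries as both comparisons above and adds no independent support to them.

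Whether diet acted differently in the sexes was tested as the male minus the female effect. None of the 7 factors was called by edgeR, DESeq2 or limma-voom, and the share of all genes tested that edgeR called was 0. At an unadjusted p under 0.05, 1 of 7 was higher. It was Ldb1, with a log2 fold change of 0.18 in males and -0.59 in females. The difference for Ldb1 was 0.77 (95% interval 0.27 to 1.27, adjusted p 0.589 by edgeR's quasi-likelihood test). By p it ranked 165 among the 19616 genes tested. The share of all genes under this unadjusted threshold was not counted, so 1 of 7 is not set against a background. All 7 differences were above 0, from 0.04 for Nfe2 to 0.77 for Ldb1. The 95% intervals of Klf1 (-0.02 to 1.54) and Gfi1b (-0.01 to 1.09) held 0, and that of Gata1 (0.01 to 0.98) began just above it. Gata1 had an unadjusted p of 0.0579 by edgeR and ranked 1893 by p among the 19616 genes tested. With no filter on low counts, Klf1 and Ldb1 were called for this difference. That fit called 403 genes higher and 169 lower for it over the whole table.

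Males and females were also set against each other within each diet. In pups of control dams, Gata1, Klf1, Gfi1b, Zfpm1, Tal1 and Ldb1 had lower means in males than in females, with log2 fold changes from -0.78 (Klf1) to -0.50 (Ldb1), and Nfe2 had one of 0.01. None was called (0 of 7 by edgeR, DESeq2 and limma-voom, with 0.0255% of all genes tested called lower and 0.0867% higher in males by edgeR), although 6 of 7 had an unadjusted p under 0.05 in edgeR and the same 6 were called with no filter on low counts. The fit with no filter called 831 genes lower and 465 higher in males over the whole table. In the filtered fit these 6 factors ranked from 291 (Tal1) to 1126 (Zfpm1) by p among the 19616 genes tested. Their adjusted p there ran from 0.155 (Tal1) to 0.262 (Zfpm1) by edgeR. The control females include the pair of batch 3, which held the highest levels of these 6 factors among the 24 libraries. Under alternatives other than leaving out a single library, their log2 fold changes stayed below 0. The values nearest 0 ran from -0.22 (Zfpm1) to -0.56 (Klf1). In pups of Western-diet dams the log2 fold changes lay between -0.25 (Tal1) and 0.27 (Ldb1), and 0 of 7 were called by each of the 3 tools, with 0.0255% of all genes tested called lower and 0.0561% higher in males by edgeR. At an unadjusted p under 0.05 that count was 0 as well.

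Within the labelled batches the difference between diets was uneven, and batch 3 held the largest values of most factors. For Klf1 the log2 difference between Western-diet and control females was -0.74 in batch 1, -0.98 in batch 2 and -2.68 in batch 3. In batch 3 the mean was 179 CPM in Western-diet females and 1036 CPM in control females. In batch 1 it was 220 CPM in Western-diet females and 377 CPM in control females. In batch 2 it was 205 CPM in Western-diet females and 396 CPM in control females. The batch means of control females thus varied more than those of Western-diet females. The mean of Western-diet females in batch 3 joins 2 unlike libraries, at 257 CPM (Western-diet female 5) and 101 CPM (Western-diet female 6). A value within a batch compares 2 libraries with 2 and cannot reach a p under 0.05 in an exact permutation test.

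Gata1 differed between Western-diet and control females by -0.45, -1.04 and -1.499 (log2) in batches 1, 2 and 3, and Gfi1b by -0.82, -1.36 and -1.51. In males Gata1 differed by -0.24, -0.21 and -1.09, Klf1 by -0.24, -0.19 and -1.16, and Gfi1b by -0.56, -0.11 and -1.43. These 3 factors therefore had the same sign in all 3 batches in both sexes, and the largest size in batch 3. Over both sexes the control pups of batch 3 averaged 371 CPM of Gata1, 857 CPM of Klf1 and 313 CPM of Gfi1b, against 165, 299 and 136 CPM in control pups of batch 1.

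In females Tal1, Ldb1 and Zfpm1 also differed most in batch 3. There Tal1 differed by 0.00, -0.24 and -1.14 (log2) in batches 1, 2 and 3, Ldb1 by -0.30, -0.29 and -1.25, and Zfpm1 by -0.38, 0.64 and -1.81. Nfe2 stayed between 0.04 and 0.23 in the 3 batches of females. In males Ldb1 differed by 0.60, -0.01 and 0.05, Zfpm1 by 0.12, 0.02 and 0.01, and Tal1 by 0.13, -0.26 and -0.27, so that Ldb1 and Zfpm1 differed most in batch 1. With batch 3 left out of the fit, Gfi1b alone was called in females and in the average (log2 fold changes of -1.14 and -0.73 by edgeR). Gata1 then had a log2 fold change of -0.77 (adjusted p 0.0584 by edgeR) and Klf1 one of -0.86 (adjusted p 0.0673) in females. The labels do not say what the batches were.

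**Figure D3:**
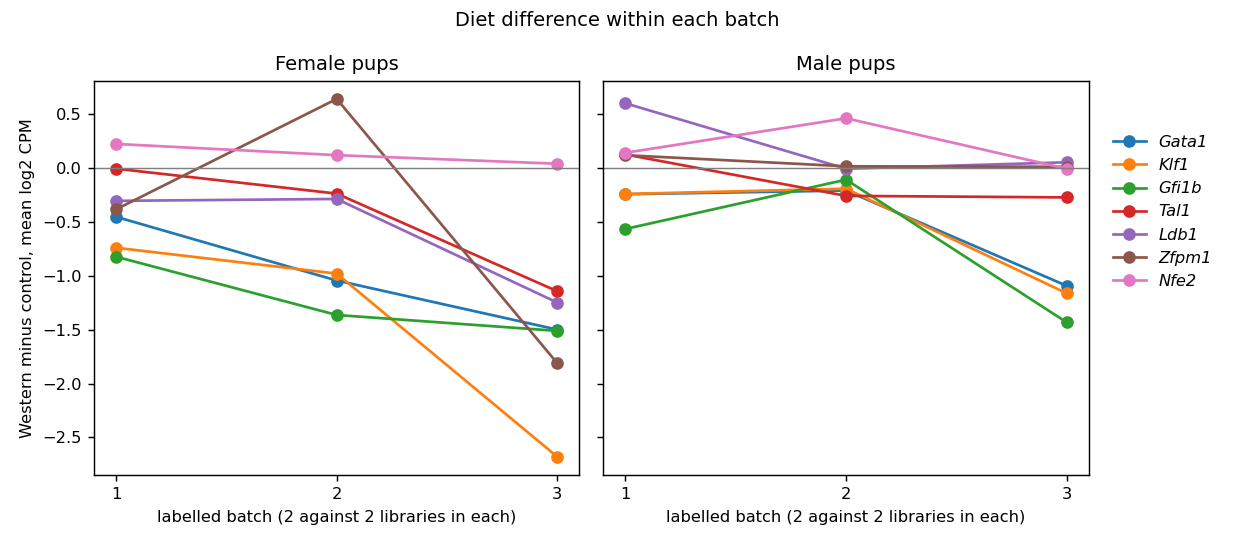
Difference in mean log2 CPM between Western-diet and control pups within each labelled batch, in females and in males, with 2 libraries against 2 at each point; the horizontal line marks no difference. The lines of Gata1, Klf1 and Gfi1b lie below 0 in every batch of both sexes and are lowest in batch 3 (Klf1 in females at -2.68).

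The factors were compared with the rivals they are set against in lineage choice through ratios of counts inside each library, which do not depend on library scaling. Gata1 over Gata2, the pair exchanged when progenitors enter the red cell line, had a median log2 ratio of 0.87 (range 0.06 to 2.53) in Western-diet females, against 2.17 (1.40 to 3.30) in control females. In males it was 1.019 (0.52 to 1.26) in Western-diet pups, against 1.99 (0.79 to 3.01) in control pups. Western-diet pups lay below all controls of their sex in 5 of 6 females and 1 of 6 males, and 5 of 6 control males lay above all Western-diet males.

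Klf1 over Fli1, whose product favours megakaryocytes over red cells, had a median log2 ratio of 0.05 (range -0.62 to 0.89) in Western-diet females, against 1.60 (0.84 to 3.68) in control females. In males the medians were 0.27 in Western-diet pups and 0.42 in control pups, so the ratio of the typical male hardly differed, while 2 of 6 control males lay above all Western-diet males. Gfi1b over its myeloid relative Gfi1 had a median of 3.67 in Western-diet females, against 5.62 in control females, and of 3.79 in Western-diet males, against 4.76 in control males. For that ratio 5 of 6 Western-diet females and 4 of 6 Western-diet males lay below all controls of their sex.

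Gata1 over Spi1, which encodes the myeloid factor PU.1, scattered more. It had a median of -0.05 (range -0.87 to 4.37) in Western-diet females, against 1.73 (0.19 to 2.85) in control females, and of 0.11 (-0.12 to 0.83) in Western-diet males, against 1.35 (0.05 to 4.80) in control males. Spi1 itself ranged from 9.17 to 185 CPM over the 24 libraries. Gata1 over its cofactor gene Zfpm1 had a median of 4.64 in Western-diet females, against 5.15 in control females, and of 4.64 in Western-diet males, against 4.99 in control males. The pairs were chosen with results of these data known, and no test was made of a ratio.

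**Figure D4:**
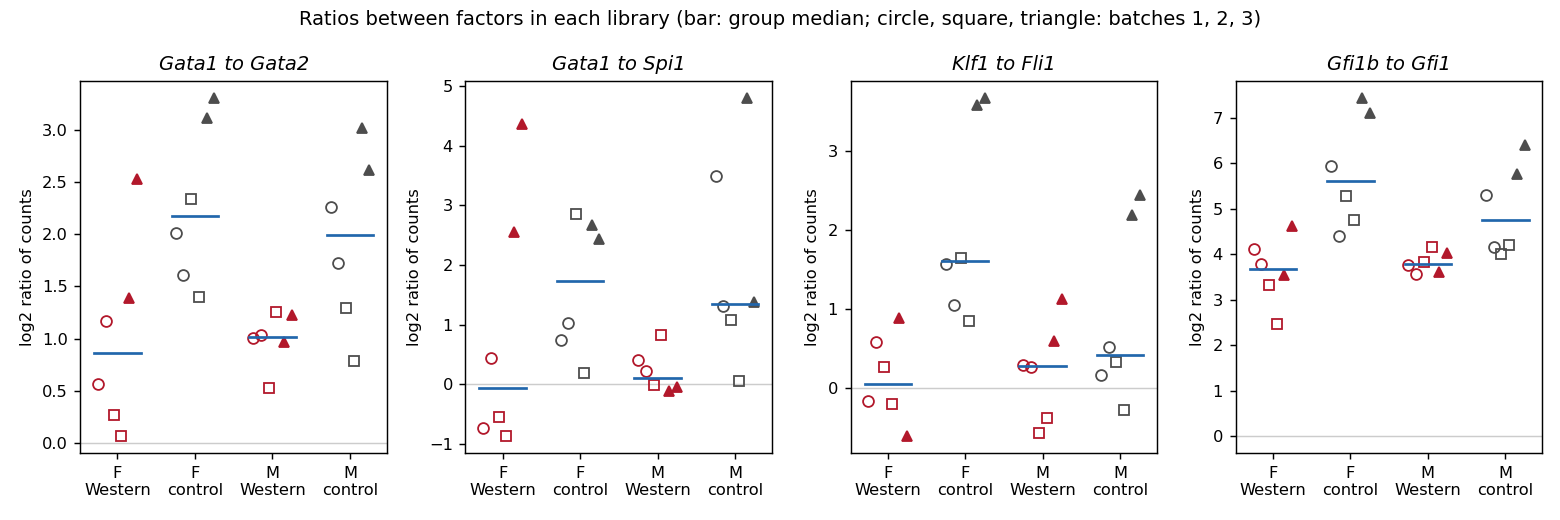
Log2 ratio of counts of a factor to a rival gene in each library, for Western-diet and control pups of each sex, with a bar at the group median; circles, squares and triangles mark batches 1, 2 and 3. In Klf1 to Fli1, 5 of 6 Western-diet females lie below all control females, and the triangles of batch 3 are the highest control values in both sexes.

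Among themselves, Gata1 and Gfi1b moved together most closely. Over the 24 libraries the Pearson r of their log2 CPM was 0.97, and 0.85 after removal of group and batch means. Gata1 and Klf1 had an r of 0.87 as measured and 0.59 after that removal, and Tal1 and Ldb1 had 0.57 and 0.63. Nfe2 had an r between -0.15 and 0.01 with each of the other 6 as measured. After that removal it had 0.37 with Gata1, 0.48 with Klf1 and 0.47 with Gfi1b, but -0.15 with Zfpm1, -0.10 with Tal1 and -0.19 with Ldb1. These values describe libraries that share batches and depth, and no test was made of them.

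With group and batch means removed, the genes most like each factor over the 24 libraries were sought among 14200 genes. For Gata1 these were Slc41a3 (r of 0.96), Bloc1s5 (0.95) and Pdia2 (0.92), and for Klf1 they were C1qtnf12 (0.96), Rab4a (0.92) and Tpm1 (0.91). Gfi1b was most like Psmf1 (0.92), Rmc1 (0.91) and Dcaf4 (0.90), and Zfpm1 most like Ppm1g (0.92), Pgp (0.90) and Nenf (0.89). Nfe2 was most like Gata3 (0.96), Zfpl1 (0.93) and Tmub1 (0.92), and Ldb1 most like Hdac7 (0.92), Epn1 (0.91) and Fxr2 (0.91). Tal1 was most like Ell2 (0.95), Ccne1 (0.88) and 2310022B05Rik (0.88), and without the control pair of batch 3 its r with Ccne1 was 0.69.

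Known targets and partners of the 7 factors were read from the same fit. Of 47 erythroid target genes tested, 36 fell and 0 rose in Western-diet females, with a median log2 fold change of -1.08, beside 0.03 for all genes tested. Car1 (carbonic anhydrase 1) fell to 256 ± 121 CPM in Western-diet females, against 696 ± 255 CPM in control females (SD, n = 6 each, log2 fold change -1.499, adjusted p 7.33e-06 by edgeR). Tspo2 (-1.33), Add2 (a membrane skeleton adducin, -1.39), Epor (the erythropoietin receptor, -1.14) and Slc4a1 (the band 3 anion exchanger, -1.73) were called lower too. Hbb-bs (adult beta globin) had a log2 fold change of -0.53 (adjusted p 0.543 by edgeR), Alas2 (the first enzyme of erythroid heme synthesis) one of -0.65 (adjusted p 0.281) and Tfrc (the transferrin receptor) one of -0.33 (adjusted p 0.408). Without the control pair of batch 3, 25 of the 47 were called lower.

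In males 1 of the 47 target genes was called lower by edgeR, and the median log2 fold change was -0.61, beside 0.02 for all genes tested. It was Car1, at 228 ± 60.3 CPM in Western-diet males and 604 ± 281 CPM in control males (SD, n = 6 each, log2 fold change -1.32, adjusted p 7.24e-05 by edgeR). DESeq2 called 15 of the 47 lower in males and limma-voom 21. At an unadjusted p under 0.05, 39 of 47 were lower in males and 39 of 47 in females by edgeR. Hbb-bs had a log2 fold change of -1.34 in males, Alas2 one of -1.35, Slc4a1 one of -1.19 and Epor one of -0.40, all with an adjusted p above the threshold (0.219 to 0.474 by edgeR).

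Of 23 other erythroid regulators, 6 fell and 0 rose in Western-diet females, with a median log2 fold change of -0.30. These were Sox6, a silencer of embryonic globin (-1.05, adjusted p 0.00131 by edgeR), Klf3, a repressor at CACCC boxes (-0.64), Cited4 (-1.82), Trim58, a ubiquitin ligase of late red cell precursors (-0.82), E2f2 (-0.78) and Stat5a (-0.37). Cited4 was carried by female control 5, with 29.8 CPM, against 1.22 to 2.62 CPM in Western-diet females and 1.503 to 7.92 CPM in the other control females. Without the control pair of batch 3 the count was 0 of 23, and it was 3 without female control 5 or female control 6 alone and 2 without Western-diet female 5. In males 0 of 23 were called by edgeR and 1 each by DESeq2 and limma-voom, with 2 lower and 1 higher at an unadjusted p under 0.05, and Sox6 had a log2 fold change of -0.74.

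Of 33 partners and co-regulators of the factors, 0 fell and 1 rose in Western-diet females (Lmo4, a LIM protein that binds LDB1, 0.48, adjusted p 0.0236 by edgeR), and the 33 genes had a median of 0.03 on the log2 scale. Lmo4 was no longer called without the control pair of batch 3, without batch 2, without batch 3, with no batch term and with only the 2 groups fitted. The same held when female control 5 or 6 or Western-diet female 2 or 5 was left out alone. Lmo2, the LIM protein of the TAL1 complex, was at 167 ± 58.4 CPM in Western-diet females and 167 ± 65.6 CPM in control females (SD, n = 6 each). Lyl1 (the TAL1 relative, -0.20) and Cbfa2t3 (the ETO2 corepressor of the complex, -0.03) were not called either. In males 0 of 33 were called by each of edgeR, DESeq2 and limma-voom, with 1 lower at an unadjusted p under 0.05 in edgeR.

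Of 11 opposing and stem cell lineage factors, 4 rose and 0 fell in Western-diet females, with a median log2 fold change of 0.33. These were Mecom (0.55, adjusted p 0.0125 by edgeR), Gfi1 (0.90), Fli1 (0.46) and Myb (0.52). Gata2 had a log2 fold change of 0.33, Runx1 one of 0.15 and Spi1 one of 0.18, all short of the test. The 4 calls were 0 without female control 6 alone and 2 without female control 5 alone. They were also 0 without the pair, without batch 2, without batch 3 and with only the 2 groups fitted, by edgeR. In males 0 of 11 were called by each of the 3 tools, and 3 were higher at an unadjusted p under 0.05 in edgeR.

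Megakaryocyte target genes, which share GATA1, GFI1B, TAL1 and NFE2 with the red cell line, had median log2 fold changes of -0.05 in females and -0.06 in males. None of the 21 tested was called in either sex by edgeR's quasi-likelihood test. DESeq2 called 2 lower in females, where it called 956 genes lower over the whole table, and 0 in males, and limma-voom called 0 in both. At an unadjusted p under 0.05 edgeR had 2 lower and 2 higher in females and 3 lower and 1 higher in males. Itga2b (the platelet integrin chain) was at 74.6 ± 15.8 CPM in Western-diet females and 76.4 ± 23.6 CPM in control females, and Pf4 (platelet factor 4) at 50.8 ± 17.1 CPM in Western-diet females and 51.6 ± 10.95 CPM in control females (SD, n = 6 each).

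**Figure D5:**
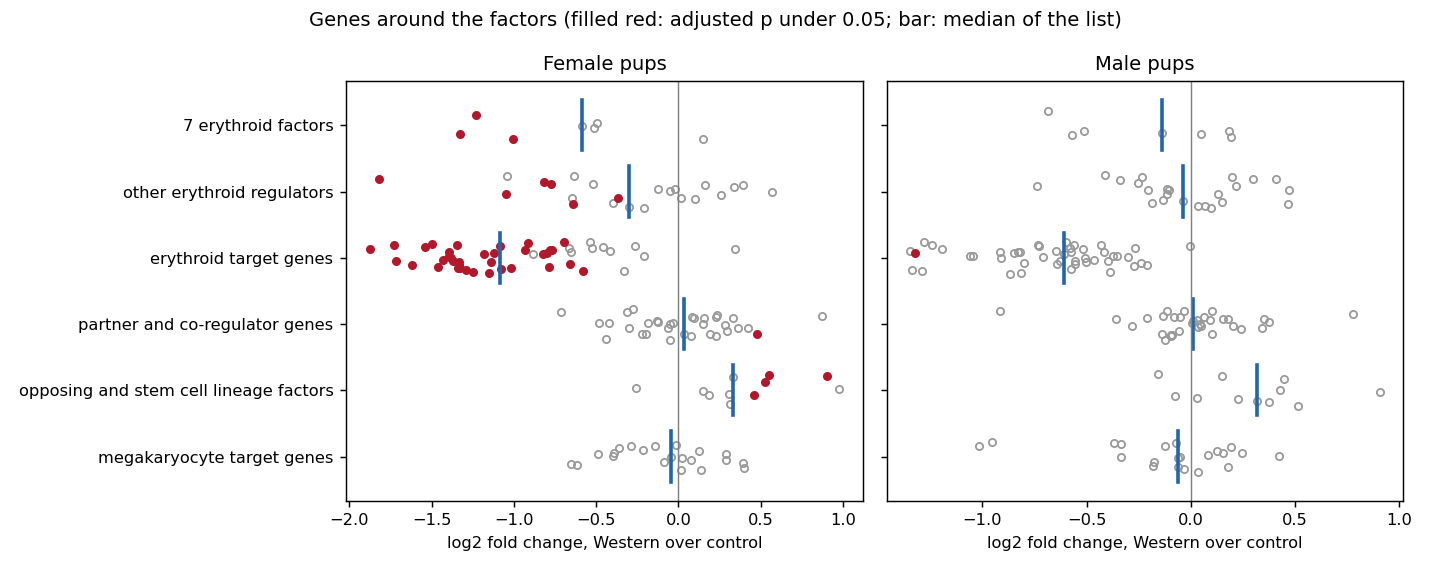
Log2 fold change for Western-diet over control pups of every tested gene in each list, in females and in males; filled red points have an adjusted p under 0.05 and a bar marks the median of the list. In females the erythroid targets lie mostly left of 0 with 36 of 47 filled, while partners (median 0.03) and megakaryocyte targets (median -0.05) lie on both sides.

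Markers of cells that the sort should have removed were read beside these results. Red cell precursor markers, all 13 of which are also in the target list, summed to 827 to 3104 CPM in Western-diet females, against 1594 to 8924 CPM in control females, and to 1243 to 3601 CPM in Western-diet males, against 3061 to 7266 CPM in control males. Of the 12 tested, 6 (3 without the control pair of batch 3) fell in females (Trim10, Epb42, Slc4a1 and Tmcc2 among them) and 0 in males by edgeR (6 in males by DESeq2, 7 by limma-voom, and 11 at an unadjusted p under 0.05 in edgeR). None of the markers was at 0 in all libraries. The 2 control females with the highest Klf1, at 1046 and 1026 CPM, had 202 and 442 CPM of Hbb-bs, against 334 to 3622 CPM in the other control females. The part of red cell precursors in the levels of the 7 factors was not tested.

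Eosinophil markers summed to 348 to 1334 CPM in Western-diet females, against 273 to 487 CPM in control females, and to 591 to 1600 CPM in Western-diet males, against 338 to 729 CPM in control males. In females 2 of these 6 markers rose (Prg3 and Prg2), in males 0 were called by edgeR, and 3 were higher there at an unadjusted p under 0.05. Prg2, an eosinophil granule protein gene, was at 636 ± 317 CPM in Western-diet females and 323 ± 68.9 CPM in control females (SD, n = 6 each). Igkc and Cd79b of 10 B cell markers and Nkg7 of 9 T and NK cell markers also rose in females, and none of these lists had a call in males by edgeR (1 lower, and 3 lower with 1 higher, at an unadjusted p under 0.05). Mast cell and basophil markers (0 of 12 called; Mcpt4 and Mcpt2 under 1 CPM in every library), neutrophil and monocyte markers (0 of 10; Ly6g under 1 CPM) and macrophage markers (0 of 8) were not called in either sex by edgeR. At an unadjusted p under 0.05, 3 of 12, 1 of 10 and 0 of 8 were higher in females. Over all libraries their most abundant genes were Prss34 (121 to 765 CPM), Mpo (1474 to 7828 CPM) and Vcam1 (47.3 to 502 CPM), and Cpa3 and Mcpt8 of mast cells and basophils ranged from 46.5 to 295 CPM and from 26.99 to 129 CPM. Of 11 LSK cell markers, Mecom and Meis1 rose in females, and none was called in males by edgeR (8 higher in females and 0 in males at an unadjusted p under 0.05). Without the control pair of batch 3, 0 of the markers of eosinophils, B cells, T and NK cells and LSK cells were called in females by edgeR. The pair, which held the highest Gata1, Klf1 and Gfi1b, also held the lowest Cd34 (229 and 227 CPM) and Ly6a (2.14 and 4.41 CPM) of the 24 libraries. The part of these cells in the levels of the 7 factors was not tested.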

How the data were processed

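RNA-seq of LSK cells from 24 pups was read from 1 deposited file per library. The values are raw counts per gene identifier, which the authors made with FastQC, cutadapt, STAR and HTSeq on build GRCm39, per the submitters' processing notes, which also name DESeq2. How strand was set in counting, which annotation release was used and the versions of these tools were not given in the sources used here, and the NEBNext low-input kit named in the labels does not mark strand. The closing HTSeq lines, which name no gene and held 31.0 to 39.3% of a library's total, were left out. Symbols came from the reference table (52081 of 55414 identifiers matched), whose annotation of an older build gave lengths, and RefSeq on GRCm38.p6 gave promoters.

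Counts were fitted with edgeR 4.0.16 (R 4.3.3): filterByExpr left 19616 genes, TMM factors ran from 0.932 to 1.05, and quasi-likelihood tests used 4 groups and batch as terms (common biological coefficient of variation 0.261). SE is the log2 fold change divided by the root of F, and 95% intervals are 1.96 SE either side. These intervals are approximate and somewhat narrower than the quasi-likelihood test implies. That of Klf1 in males (-1.13 to -0.01) leaves out 0 at an unadjusted p of 0.0563 by edgeR. Log2 CPM used a prior count of 2. All p-values are two-sided. Scripts were tested on simulated data. Alternatives were DESeq2 1.42.0, limma-voom (limma 3.58.1), RLE scaling, no filter, a filter of 1 CPM in at least 6 libraries, no batch term, a replicate block, only the 2 groups compared, and leaving out each batch, the female control pair of batch 3, and each library.

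The 7 factors and all gene lists (211 of 212 symbols matched) were chosen with earlier results of these data known. Named list genes are up to 4 called genes with the smallest p in each sex, certain genes named whatever their values, the most abundant gene of each marker list, and the 3 genes with the highest r with each factor at a mean CPM of 1 or more. E2f2, Stat5a, Flt3, Ly6g, Mcpt2 and Mcpt4 were named after their values were seen. Some genes that the rule names are not reported here. Intervals and tests cover the spread between libraries only.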

Additional observations from a re-analysis of the deposited data

Results flagged for a closer look

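In 4 of the 28 groups of 6 libraries (7 factors in 4 groups), the highest or lowest library lay apart from the others, with a gap to its nearest neighbour, as a share of the range of its group, past Dixon's critical value for that number. Chance flags about 1 in 20 groups.

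Gfi1b stood at 176 CPM in Western-diet female 6, with a gap of 0.638 of the range to the next library. The same library held the highest Gata1 (189 CPM) of the Western-diet females and the lowest Klf1 (101 CPM) and Zfpm1 (2.42 CPM). Nfe2 stood at 395 CPM in Western-diet female 3, with a gap of 0.793 of the range. Tal1 stood at 174 CPM in female control 5, with a gap of 0.631 of the range, and that library is 1 of the control pair of batch 3. Ldb1 stood at 34.7 CPM in male control 1, the lowest of the control males, with a gap of 0.661 of the range. No cause of these values was tested.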

How the results depend on the processing

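Of 1498 fold changes of the 7 factors under other settings or with a library left out, 1407 kept their direction and their side of the threshold, 8 lost and 27 gained a call, and 56 changed sign. The cause of the changes below was not tested.

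Factors called lower in females numbered 5 with no filter on low counts, 5 without batch 1 and 1 without batch 3, against 3 as reported. Those fits called 1145, 1234 and 136 genes lower over the whole table. In males 3 factors were called lower with no filter, against 0 as reported, in a fit that called 221 genes lower. In the average over sexes 1 factor was called lower without batch 3, against 3, in a fit that called 130 genes lower. The difference of the diet effects had 2 factors called higher with no filter, in a fit that called 403 genes higher and 169 lower. Males against females in control pups had 6 factors called lower with no filter, where 831 genes were called lower and 465 higher. With only those 2 groups in the fit 1 factor was called lower, where 78 genes were called lower and 33 higher. Leaving out each library in turn gave 3 to 4 factors called lower in females, 3 to 3 in the average and 0 to 0 in males. Over all genes, calls in females ran from 136 to 1234 lower and from 10 to 878 higher, and in males from 0 to 221 lower and from 0 to 159 higher, against 632, 432, 2 and 0 as reported. With the longest coding transcript as length, Nfe2 averaged 136 and Ldb1 23.7 CPM per kilobase.

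None of the fold changes that changed sign was called with either sign. For males against females in control pups, Nfe2 (0.01 as reported) had a log2 fold change of -0.00138 with RLE scaling, -0.00679 with no filter, -0.00138 in DESeq2, -0.0501 in limma-voom, -0.0174 with only 2 groups, -0.179 without batch 3 and -0.0631 without the control pair. For males against females in Western-diet pups, Klf1 had 0.00326 in limma-voom, 0.124 with no batch term, 0.00340 with the replicate block, 0.0686 with only 2 groups, 0.144 without batch 1 and 0.124 without batch 2. Zfpm1 there had 0.0171 in limma-voom and 0.301 without batch 2, Gata1 0.0496 without batch 1, Nfe2 -0.0244 without batch 2 and -0.0712 without batch 3, and Gfi1b 0.119 without batch 3. The difference of the diet effects was -0.0962 for Nfe2 without batch 2 and -0.0770 for Zfpm1 without batch 3. The diet effect on Zfpm1 without batch 3 was 0.152 in females and 0.114 in the average, and 0.00482 in the average without the control pair. With each library left out, the male effect on Zfpm1 ran from -0.0348 to 0.129 and the difference for Nfe2 from -0.0512 to 0.139. Male against female values then ran from -0.133 to 0.0957 for Gata1, -0.243 to 0.174 for Klf1, -0.149 to 0.0865 for Gfi1b and -0.0419 to 0.139 for Nfe2 in Western-diet pups, and from -0.0843 to 0.0536 for Nfe2 in control pups.

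The labels number replicates alike in each group, but name neither dams nor litters. Over 12 checks of same-numbered libraries between pairs of groups within batches, the correlation of deviations ran from -0.28 to 0.26. Each check rests on 2 libraries of each group, so it cannot decide whether same-numbered libraries were matched. With the replicate block, 3 of 7 factors were called lower in females, 3 in the average and 0 in males, as reported, while genes called in females numbered 554 lower and 273 higher.

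In females, Gata1 lost its call with no batch term (adjusted p 0.0504 by edgeR), and Klf1 lost its call without batch 2 (0.0574) and with only 2 groups (0.0564).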
